A study of Mus musculus with 20 samples.

Results

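Fibro-inflammatory progenitors (FIPs) were set against adipocyte precursor cells (APCs) from the gonadal fat of mice carrying the label Mural-Zfp423 transgenic. The comparison comprised 10 of the 20 libraries of the series, the 5 FIP and the 5 APC libraries of that label, and it asked which genes differ between these stromal populations within mice of 1 genotype. The mice were males of 8 weeks, kept at 30 °C and fed for 1 month on high-fat chow, in which fat supplied 60% of calories. FIPs had been sorted as CD45- CD31- PDGFRb+ LY6C+ cells and APCs as CD45- CD31- PDGFRb+ LY6C- CD9- cells. The other 10 libraries came from control mice with the same sex, age, housing, diet and gates, and they served only to ask whether a population difference was larger or smaller under the transgenic label. Each library held polyA RNA pooled from 2 mice. The labels give 10 mice per genotype, so 5 pools of FIPs and 5 pools of APCs must have drawn on the same mice, but which pools share mice is not stated. The sources used here do not give the promoter of the transgene, the cells it is active in or the control genotype.

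White fat grows partly by making new adipocytes from perivascular stromal cells that carry PDGFRb. Within that stroma, committed APCs express early adipocyte genes such as Pparg and Lpl. LY6C+ FIPs are known to resist adipogenesis and to secrete matrix and inflammatory signals, and they share markers with the DPP4+ progenitors of the fibrous layer around fat depots. Zfp423 encodes a zinc finger protein that commits precursors to the adipocyte lineage and restrains inflammatory signalling in them.

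Levels are the authors' log2 CPM, read counts scaled to the size of the library, in which values at or below 1 CPM are listed as 0. Values of single libraries are given in the order of replicates 1 to 5, and a difference is the FIP mean minus the APC mean in log2 units, with its standard error (SE). Calls rest on limma's moderated test with Benjamini-Hochberg adjustment over all 17435 genes tested, at an adjusted p of 0.05. Because no label says how pools were drawn, p-values measure the spread between these libraries. In bulk RNA from sorted cells, fewer cells of a type and less RNA per cell cannot be told apart.

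Zfp423 (chr8:87661810-87959595, GRCm38, minus strand) was read first as a check of the labels. Its level was 5.58, 5.47, 5.53, 5.54 and 5.52 in FIPs and 5.16, 4.73, 4.64, 4.47 and 4.52 in APCs of the transgenic label, against 5.47, 5.48, 5.47, 5.63 and 5.3 and 4.96, 4.97, 4.98, 4.72 and 5.21 in the control libraries. The transgenic and control values of Zfp423 overlapped in both populations, although replicates 3, 4 and 5 of the transgenic APCs lay below every control APC library. The reads of this gene do not mark the mice as carriers, so the groups are named here by their label only. Within the transgenic label Zfp423 was higher in FIPs, by 0.82 ± 0.10 (SE; limma adjusted p = 1.2e-06), and the groups did not overlap. The genes of the sort followed the gates: Ly6c1 lay at 7.07 to 7.37 in FIPs and 4.88 to 5.28 in APCs, and Cd9 at 6.55 to 6.67 and 4.12 to 4.81. Ly6c1 and Ly6c2 are near-identical copies whose reads may have been split, and no gate gene is a result. Pdgfrb was present in both populations, at 8.79 to 9.09 in FIPs and 9.24 to 9.51 in APCs. Transcripts of the cells that the gates should remove were also present: Ptprc, which encodes CD45, lay at 3.0 to 4.2 in FIPs and 3.3 to 4.61 in APCs, and Pecam1, which encodes CD31, at 5.98 to 6.65 and 5.89 to 6.58.

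Library depth, read from the spacing of the lowest values, was 7820000 to 8500000 reads in FIPs and 6600000 to 8380000 reads in APCs. Replicate 1 of the APCs stood apart. It had 17098 genes above 0 against 16066 to 16881 in the other APC libraries and lay at one end of the second principal component, which carried 11.5% of the variance against 64.7% for the first. Its mean over the lipid genes was 7.73 against 7.06 to 7.22, over the erythroid transcripts 5.53 against 4.33 to 4.79, and over the lymphoid markers 1.01 against 0.28 to 0.36. These values lay within the ranges of the control APC libraries, 7.48 to 8.06 for lipid, 5.19 to 6.04 for erythroid and 0.51 to 1.36 for lymphoid genes. The control APC libraries had 16484 to 17282 genes above 0. Replicate 5 of the FIPs stood apart in the interferon list, with a mean of 5.93 against 5.05 to 5.28. The control FIP libraries lay at 5.55 to 5.97 in that list. Results that these libraries move are given below with and without them.

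FIPs and APCs differed in a large share of the transcriptome. Of 17435 genes tested, 7275 (41.7%) were called, 3962 (22.7%) higher in FIPs and 3313 (19.0%) lower, and in 5050 genes (29.0%) the 5 FIP and 5 APC values did not overlap. Most of the differences were small, with a median size of 0.20 over all genes tested and a median difference of -0.01. A difference of at least 1 was called for 620 genes higher and 409 genes lower, and one of at least 3 for 80 genes higher and 9 lower, so the largest changes lay mostly on the FIP side. The split of the calls depended on the scaling: 54.5% of the calls were higher as deposited and 43.8% after each library was centred on its median, which moved the median of all genes to -0.06. These shares are the background for every gene group below.

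**Figure D1:**
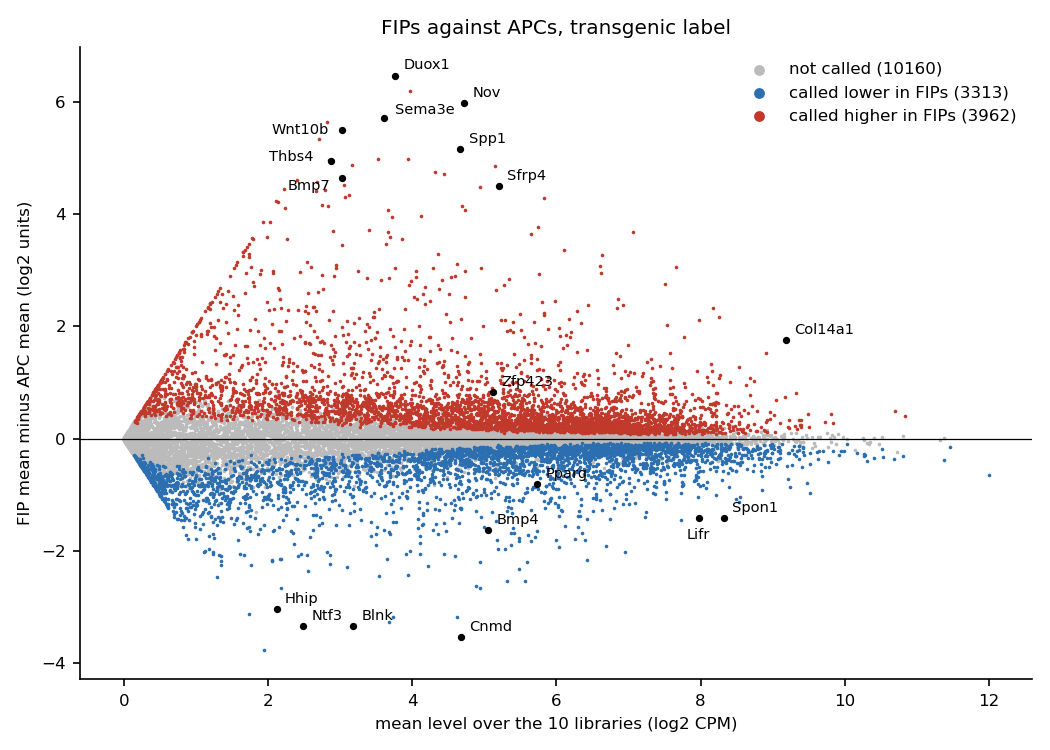
Difference between FIPs and APCs of the transgenic label (vertical axis, log2 units, FIP mean minus APC mean) against the mean level over the 10 libraries (horizontal axis, log2 CPM) for 17435 genes. Each point is a gene, red where it was called higher in FIPs (3962 genes), blue where called lower (3313) and grey otherwise. Some of the genes named in the text, among them Duox1 at 6.46 and Cnmd at -3.53, are labelled. The upper tail reaches further than the lower one.

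All 19 interstitial progenitor markers, the genes of DPP4+ progenitors, were called higher in FIPs, and their median difference was 2.75. The list was chosen with earlier results of these data known, so this count describes its members and is not an independent test of identity. The group held secreted and membrane proteins of several kinds. Efhd1, a mitochondrial calcium-binding protein, lay at 6.84, 6.78, 6.68, 6.57 and 6.59 in FIPs and 2.55, 2.04, 1.77, 1.79 and 1.6 in APCs, a difference of 4.74 ± 0.17 (limma adjusted p = 4.3e-15). Limch1, a regulator of the actin cytoskeleton, lay at 7.33 to 7.6 in FIPs and 3.59 to 4.25 in APCs, and Opcml, a cell adhesion protein, at 5.18 to 5.58 and 2.56 to 2.62. Neither gene's groups overlapped. Replicate 1 of the APCs had the highest mean over these markers among the APC libraries, 5.10 against 4.86 to 4.90, far below the FIP range of 7.42 to 7.66.

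Committed preadipocyte markers went the other way. Of 22 tested, 17 were called lower in FIPs and 1 higher. The median difference was -0.37, so the size of this difference was modest beside that of the interstitial markers. Without replicate 1 of the APCs 15 were lower, and without replicate 5 of the FIPs 14. Hsd11b1, which makes active glucocorticoid inside cells, lay at 6.94, 7.14, 7.21, 7.13 and 6.81 in FIPs and 7.86, 7.99, 8.07, 7.9 and 8.14 in APCs and differed by -0.95 ± 0.07 (limma adjusted p = 1.1e-09). Cxcl14, a chemokine, fell by 1.57, the furthest of the 22, from 6.75 to 7.4 in APCs to 4.8 to 5.89 in FIPs. The lipid droplet protein Plin2 (-0.61), the cell-surface peptidase Ggt5 (-0.64) and the adhesion protein Vcam1 (-0.59) were also lower without overlap. The exception was Cdh11, a mesenchymal cadherin, at 6.83, 6.77, 6.81, 7.11 and 7.43 in FIPs and 5.22, 5.42, 5.4, 5.17 and 5.38 in APCs (1.67 ± 0.11; limma adjusted p = 2.0e-10).

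Among 33 transcription factors of adipogenesis, 8 were higher and 14 lower, with a median difference of -0.13. Lower in FIPs were the lipid sensor Nr1h3, at 5.64, 5.54, 5.51, 5.42 and 5.44 against 6.36, 6.45, 6.42, 6.38 and 6.32 (-0.88 ± 0.05; limma adjusted p = 2.9e-12), the orphan receptor Nr2f2 (-0.72) and Ebf3 (-0.64). Pparg, the master regulator of fat cell formation, had values of 5.58, 5.43, 5.48, 5.19 and 4.97 in FIPs and 6.39, 6.12, 6.14, 6.17 and 5.89 in APCs. Higher in FIPs was Zfp521, a zinc finger protein related to Zfp423 that is known to oppose adipogenesis, at 7.07, 7.1, 6.87, 7.05 and 7.02 against 5.87, 5.89, 5.82, 5.89 and 5.99 (1.13 ± 0.06; limma adjusted p = 8.9e-12). Zfp423 and its relative were thus both higher in the population whose Pparg was lower. Klf3, a repressor of adipogenesis, was higher as well, by 0.81. The early adipogenic factor Cebpb was not called, at 6.99 to 7.1 in FIPs and 7.05 to 7.28 in APCs, nor was Ebf1, at 7.99 to 8.13 and 8.01 to 8.17.

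Adipocyte lipid genes were lower in FIPs in 10 of 35 tested and higher in none, with a median of -0.33. The clearest were G0s2, an inhibitor of lipolysis, at 5.63, 5.7, 5.67, 5.59 and 5.28 in FIPs and 6.5, 6.44, 6.41, 6.46 and 6.52 in APCs (-0.89 ± 0.07; limma adjusted p = 7.5e-10), and Fabp4, a fatty acid carrier, at 7.8, 7.7, 7.69, 7.47 and 7.3 and 8.52, 8.2, 8.11, 8.24 and 8.35 (-0.69). In both genes every FIP library was below every APC library. Most of the list was less clear: the lipogenic enzyme Acaca lay at 8.14 to 8.8 in FIPs and 8.34 to 9.27 in APCs and was not called. Without replicate 1 of the APCs, 6 genes were lower, 1 higher, and the median was -0.19. Without replicate 5 of the FIPs 6 were lower, after median centring 24, and with the replicate number as a block 29. Erythroid transcripts moved in the same direction in the same libraries, with summed levels of 332 to 591 CPM in FIPs and 469 to 1.07e+03 CPM in APCs. Of the 8 erythroid genes tested 4 were lower and 1 higher, and 1 was lower without replicate 1 of the APCs or without replicate 5 of the FIPs. Their part in the lipid result was not tested.

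Mural cell markers, the genes of pericytes and vascular smooth muscle, were lower in FIPs in 15 of 24 tested and higher in 1, with a median of -0.48. Higd1b, a pericyte gene, was listed at 0, 0.19, 0.30, 0 and 0 in FIPs and 1.91, 2.13, 2.47, 2.06 and 2.03 in APCs (-2.02 ± 0.16; limma adjusted p = 1.2e-09). Lmod1, an actin nucleator of smooth muscle, lay at 3.1, 2.1, 2.95, 3.12 and 2.37 and 5.49, 4.98, 5.0, 5.44 and 4.92 (-2.44), and the intermediate filament protein Des at 5.87 to 6.2 and 6.94 to 7.12 (-1.0). The groups of these 3 genes did not overlap. Several defining mural genes were not among the calls: Rgs5 lay at 6.33 to 6.88 in FIPs and 6.21 to 6.82 in APCs, Acta2 at 5.88 to 6.26 and 5.64 to 6.04, and Myh11 at 5.54 to 5.93 and 5.44 to 6.74. Endothelial markers split 2 higher and 3 lower of 24, with a median of -0.03. Without replicate 1 of the APCs, 12 mural markers were lower, and likewise 12 without replicate 5 of the FIPs.

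Notch3 and Heyl stood in both the mural list and the Notch pathway, in which membrane ligands on one cell release an intracellular fragment of the receptor on its neighbour. Of 21 Notch genes tested, 4 were higher and 7 lower, with a median of -0.12. Receptors split: Notch1 fell by 1.15, from 7.58, 7.72, 7.65, 7.85 and 7.52 in APCs to 6.41, 6.59, 6.69, 6.64 and 6.23 in FIPs (SE 0.09; limma adjusted p = 7.0e-10), and Notch3 and Notch4 were lower (-1.46 and -0.63), whereas Notch2 was higher by 0.40. Among ligands, Dll1 was lower (-0.82) and Jag1 higher (0.38). The DNA-binding partner of the receptors, Rbpj, was higher, at 7.94, 7.95, 7.9, 7.84 and 7.87 in FIPs and 7.32, 7.37, 7.41, 7.32 and 7.33 in APCs. Of the effectors, Heyl was lower (-1.23) and Hes1 higher (0.27), and the receptor modifier Lfng was lower (-1.1).

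Wnt signalling genes gave some of the widest gaps between the populations. Wnts are secreted lipid-modified ligands that act through Frizzled receptors and that are known to hold precursors back from adipogenesis. Of 13 ligands and R-spondins tested, 7 were higher and 3 lower in FIPs, with a median of 0.76. Wnt10b, an inhibitor of fat cell formation, lay at 5.99, 5.74, 5.67, 5.7 and 5.76 in FIPs and at 0.51, 0, 0.18, 0.63 and 0.08 in APCs, a difference of 5.49 ± 0.22 (limma adjusted p = 2.6e-14). Wnt2 lay at 5.05, 5.0, 4.7, 4.08 and 4.71 and 0, 0.50, 0.01, 0 and 0 (4.61 ± 0.19; limma adjusted p = 4.9e-14). Wnt10b and Wnt2 were thus near the floor of the table in every APC library and well above it in every FIP library. Wnt16 was listed at 0 in all 5 APC libraries and lay at 3.27, 2.75, 2.86, 3.75 and 4.4 in FIPs. Wnt4 varied most among the FIPs, at 4.44, 4.3, 3.93, 4.85 and 5.44, and lay at 1.81 to 2.96 in APCs. Lower in FIPs were Wnt6 (-0.85) and Rspo3 (-1.03), an amplifier of Wnt signals. The third lower gene, Wnt5b (-0.43), lost its call when any one of 8 of the 10 libraries was left out, with differences of -0.45 to -0.34. Wnt5a, which acts outside the beta-catenin route, was not called, at 6.28 to 6.47 in FIPs and 5.87 to 6.61 in APCs.

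Among Wnt receptors 8 of 15 were higher and 3 lower, with a median of 0.23. Fzd2 rose by 1.22, from 5.03, 4.91, 5.37, 5.14 and 5.2 in APCs to 6.4, 6.33, 6.05, 6.32 and 6.64 in FIPs (SE 0.09; limma adjusted p = 8.8e-10), and Fzd8 by 0.78. Fzd10 was listed at 0 in every APC library and at 1.39, 1.02, 1.3, 1.03 and 1.37 in FIPs. The co-receptor Lrp5 was lower (-0.47), as was Fzd4 (-0.24). After median centring 5 receptors were higher and 2 lower. Receptors and co-receptors therefore did not move together.

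Secreted and intracellular Wnt antagonists and targets counted 7 higher and 2 lower of 19, yet their median was 0.01. The higher members included the 3 secreted Frizzled-related proteins Sfrp4, Sfrp2 and Sfrp1. Sfrp4 lay at 7.51, 7.45, 7.49, 7.4 and 7.42 in FIPs and 3.45, 2.92, 2.94, 2.63 and 2.83 in APCs (4.5 ± 0.12; limma adjusted p = 1.5e-16). Dkk3, of the Dickkopf family, lay at 5.64, 5.44, 5.34, 5.77 and 6.32 and 1.81, 1.36, 1.4, 1.74 and 1.86 (4.07), and the intracellular Dishevelled antagonists Dact1 and Dact2 were higher by 1.17 and 4.98. Axin2, a common readout of beta-catenin activity, was higher by 0.43 with overlapping groups, at 4.01, 4.03, 3.84, 4.31 and 4.56 in FIPs and 4.03, 3.52, 3.6, 3.79 and 3.65 in APCs (limma adjusted p = 0.017). Without replicate 5 of the FIPs that difference was 0.33 and lost its call (limma adjusted p = 0.063). Nkd2, which damps Wnt signals, was lower (-0.71).

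**Figure D2:**
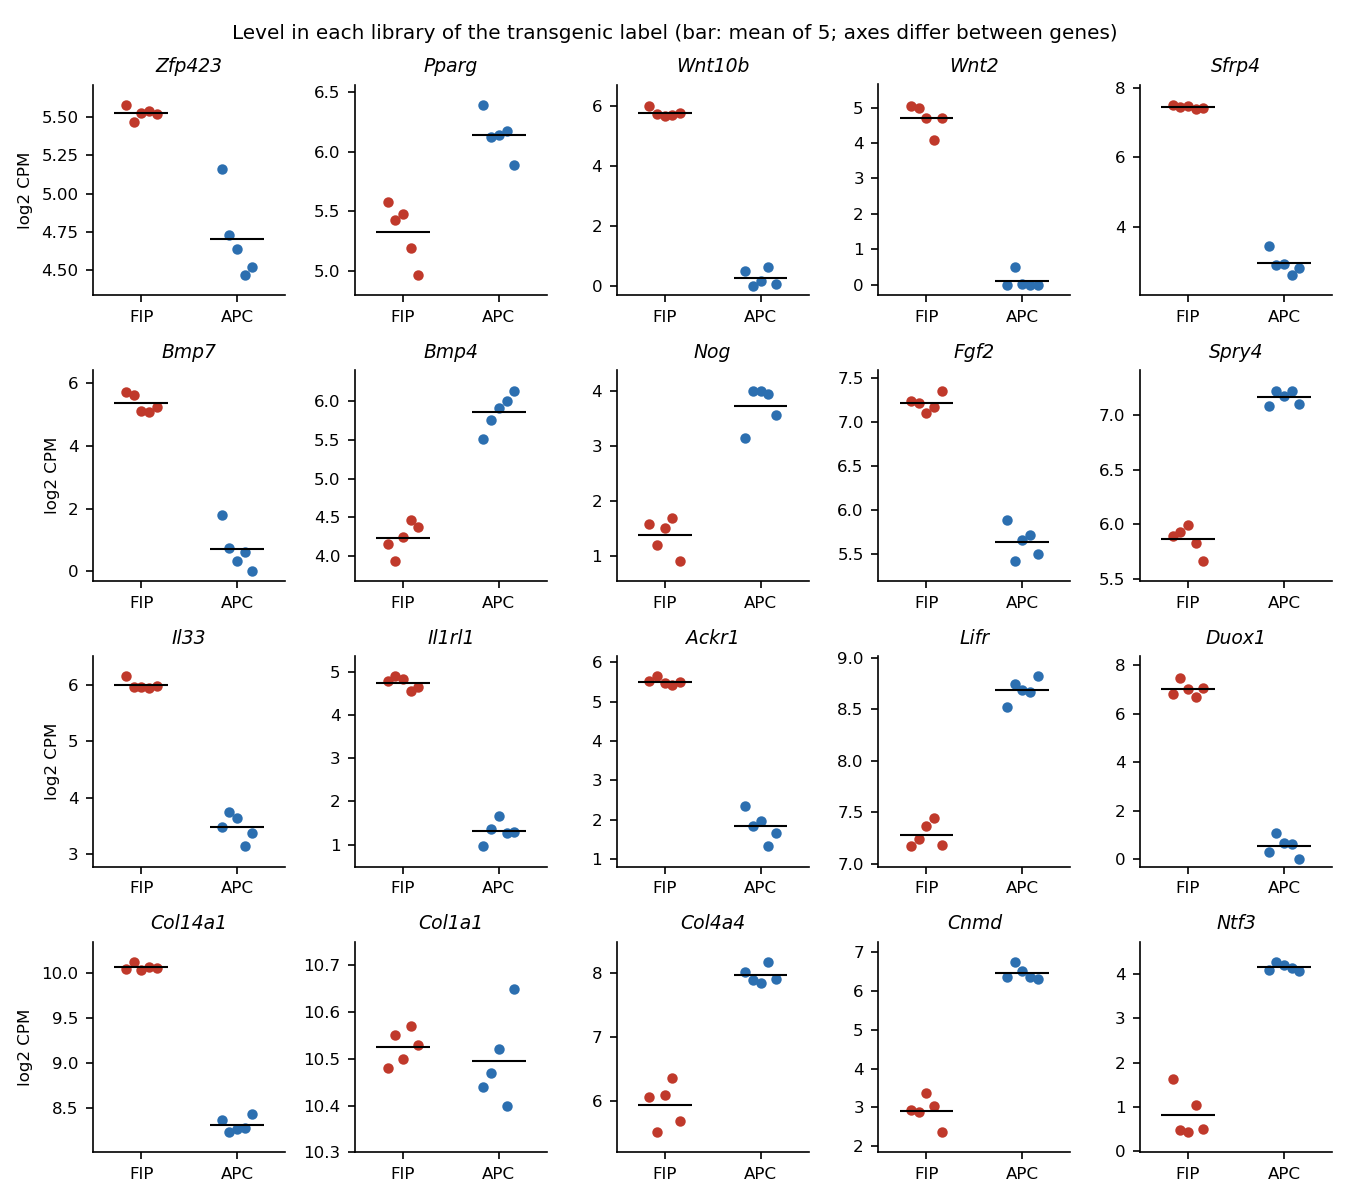
Level (vertical axis, log2 CPM) of 20 genes in the 10 libraries of the transgenic label, one panel per gene, FIPs in red and APCs in blue, with a bar at each group's mean. Wnt10b, Wnt2, Bmp7, Duox1, Ackr1 and Il1rl1 lie at or below 2.34 in APCs and above 4 in FIPs, while Cnmd, Ntf3, Lifr, Spry4 and Bmp4 are lower in each FIP library than in any APC library.

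The transforming growth factor family signals through paired kinase receptors to SMAD proteins, with BMP4 and BMP7 known as inducers of the adipose lineages and TGF-beta as an inducer of matrix. Of 15 ligands tested, 9 were higher and 3 lower in FIPs, with a median of 0.60. Bmp7 lay at 5.71, 5.62, 5.1, 5.07 and 5.23 in FIPs and 1.81, 0.74, 0.33, 0.63 and 0 in APCs (4.64 ± 0.33; limma adjusted p = 2.8e-10). Bmp6 lay at 7.48, 7.59, 7.26, 7.22 and 7.31 and 5.23, 5.05, 5.44, 5.4 and 5.45 (2.06), and Bmp2 at 6.73 to 7.01 and 5.58 to 5.8 (1.16). Bmp4 went the other way, at 4.16, 3.94, 4.25, 4.46 and 4.37 in FIPs and 5.51, 5.76, 5.92, 6.01 and 6.14 in APCs (-1.63 ± 0.13; limma adjusted p = 2.0e-09), with Bmp5 (-0.90) and the stress-induced Gdf15 (-0.77) lower as well. BMP ligands thus divided between the populations, with Bmp2, Bmp6 and Bmp7 on the FIP side and Bmp4 and Bmp5 on the APC side. Tgfb2 and Tgfb3 were higher by 1.04 and 0.60 and the activin subunit Inhba by 1.6. Tgfb1 was not called, at 5.81 to 6.0 in FIPs and 5.88 to 6.16 in APCs.

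The receptors of this family split as well, 4 higher and 5 lower of 13, with a median of -0.02. Tgfbr1 and Tgfbr2, the TGF-beta receptors, were higher, by 0.66 and 0.42, at 6.94 to 7.41 against 6.32 to 6.59 and 9.18 to 9.36 against 8.71 to 8.91. The activin receptors Acvr2a (-0.64), Acvr2b (-1.2) and Acvr1b (-0.43) were lower. Without replicate 1 of the APCs, 2 receptors were higher in place of 4, and after median centring 2. Of 16 antagonists and latent TGF-beta binding proteins, 9 were higher and 4 lower. Ltbp2, a matrix-bound protein, at 7.77, 7.81, 7.72, 8.11 and 8.61 in FIPs and 5.58, 5.45, 5.89, 5.54 and 5.97 in APCs (2.32 ± 0.19; limma adjusted p = 2.5e-09), was among the higher ones. Nog, which encodes the BMP antagonist noggin, was lower, at 1.58, 1.19, 1.5, 1.68 and 0.91 and 3.14, 4.01, 4.01, 3.95 and 3.56 (-2.36). Of 10 SMAD-dependent target genes 7 were higher and 1 lower, with a median of 0.40, led by Tgfbi (0.76), the inhibitory Smad7 (0.43) and Id4 (0.81).

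Fibroblast growth factor genes also lay on both sides. FGFs are secreted ligands of receptor kinases whose signal induces its own feedback inhibitors, the Sprouty proteins and Dusp6, and the ETS factors Etv4 and Etv5. Of 22 genes 7 were higher and 8 lower (68.2% called, against 41.7% of all genes tested), with a median of -0.13. Most of the higher calls were ligands: Fgf2 lay at 7.24, 7.22, 7.11, 7.17 and 7.36 in FIPs and 5.89, 5.43, 5.66, 5.72 and 5.5 in APCs (1.58 ± 0.07; limma adjusted p = 2.1e-13), Fgf18 was higher by 2.88 and Fgf1 by 1.8, and Fgf16 was listed at 0 in all APC libraries and at 2.77 to 3.34 in FIPs. Feedback genes were among the lower ones: Spry4 lay at 5.89, 5.93, 5.99, 5.83 and 5.67 in FIPs and 7.08, 7.22, 7.17, 7.22 and 7.1 in APCs (-1.3 ± 0.06; limma adjusted p = 1.1e-13). Spry1 (-0.79), Dusp6 (-0.92), Etv4 (-1.63) and Etv5 (-0.62) differed in the same direction. Fgf10, a ligand that supports adipogenesis, was also lower, at 4.95 to 5.25 against 5.78 to 6.39 (-0.94).

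Among 27 vascular, platelet-derived and epidermal growth factor genes, 13 were higher and 7 lower, with a median of 0.28. Pdgfc lay at 5.39, 5.56, 5.23, 5.06 and 5.17 in FIPs and 3.43, 2.47, 2.71, 2.74 and 2.45 in APCs (2.52 ± 0.17; limma adjusted p = 1.4e-10), and Vegfa, the main angiogenic factor, at 7.16 to 7.44 and 6.43 to 7.0 (0.72). The angiopoietins divided, with Angpt4 higher at 4.46 to 5.62 against 0.28 to 1.7 (4.15) and Angpt1, which stabilises vessels, lower at 4.53 to 5.01 against 5.72 to 6.18 (-1.05). The vasoconstrictor Edn1 was higher by 1.95, and Hgf and Vegfc were lower (-1.04 and -0.58).

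Insulin-like growth factor genes counted 6 higher and 9 lower of 18, with a median of -0.20. Among the higher calls were binding proteins: Igfbp3 lay at 7.03, 6.92, 6.88, 7.43 and 7.75 in FIPs and 5.03, 4.86, 4.49, 4.67 and 4.75 in APCs (2.44 ± 0.15; limma adjusted p = 2.4e-11) and Igfbp5 at 8.39 to 8.77 and 6.28 to 7.3 (2.02). The related proteases that cut binding proteins diverged, with Pappa2 higher (2.04) and Pappa lower (-1.75). Insr, Irs1 and Irs2, the insulin receptor and its adaptors, were lower (-0.52, -0.42 and -0.35). Igf1 itself was not called, at 8.15 to 8.46 in FIPs and 7.81 to 9.0 in APCs.

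In the Hedgehog pathway 3 of 12 genes were higher and 5 lower. Hhip, a decoy receptor for Hedgehog ligands, lay at 0.52, 0.92, 0.97, 0.49 and 0.08 in FIPs and 3.85, 3.29, 3.4, 3.56 and 4.11 in APCs (-3.05 ± 0.19; limma adjusted p = 3.3e-11). Gli1, a target and effector of the pathway, was higher, at 3.74, 3.19, 3.57, 4.01 and 3.75 and 2.48, 2.04, 2.14, 1.89 and 2.36 (1.47), and the co-receptor Cdon was higher by 1.01 while its relative Boc was lower (-0.54). The receptor Ptch1 was not called, at 4.44 to 4.6 in FIPs and 4.34 to 5.06 in APCs.

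Inflammatory signals, for which FIPs are named, lay on both sides. Of 36 cytokines and their receptors 9 were higher and 15 lower in FIPs, with a median of -0.004. Of 28 chemokines and atypical chemokine receptors 8 were higher and 7 lower. The shares called were 66.7% and 53.6%, against 41.7% of all genes tested, 22.7% higher and 19.0% lower. The chemokine counts were thus not far from the background in either direction. The alarmin Il33 lay at 6.15, 5.97, 5.97, 5.94 and 5.98 in FIPs and 3.48, 3.75, 3.64, 3.14 and 3.38 in APCs (2.52 ± 0.16; limma adjusted p = 8.0e-11). Its receptor gene Il1rl1 lay at 4.79, 4.9, 4.84, 4.56 and 4.66 and 0.96, 1.36, 1.66, 1.26 and 1.28 (3.45 ± 0.27; limma adjusted p = 1.3e-09), so ligand and receptor were both higher in the same population. Csf2, which encodes the growth factor GM-CSF, was listed at 0 in all 5 APC libraries and lay at 3.62, 3.32, 3.18, 2.76 and 2.82 in FIPs. Il11 was higher by 1.83 and Il18 by 0.96. Receptors of the interleukin-6 family were lower: Lifr lay at 7.17, 7.24, 7.37, 7.44 and 7.18 in FIPs and 8.52, 8.75, 8.69, 8.67 and 8.82 in APCs (-1.41 ± 0.06; limma adjusted p = 2.8e-13), Osmr differed by -0.42 and Il11ra1 by -0.28. Il6 was not called, at 8.05 to 8.18 in FIPs and 7.83 to 8.18 in APCs.

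The atypical chemokine receptors, which take up chemokines without signalling through G proteins, were all higher in FIPs. Ackr1 lay at 5.52, 5.64, 5.46, 5.42 and 5.51 in FIPs and 2.34, 1.85, 1.97, 1.33 and 1.67 in APCs (3.68 ± 0.13; limma adjusted p = 7.5e-15). Ackr2, Ackr3 and Ackr4 were higher by 2.65, 1.52 and 3.04, with no overlap in any of them. Of the chemokines, Cxcl2 was higher, at 7.02 to 7.32 against 5.76 to 6.18 (1.22), as were the monocyte attractants Ccl8 (1.4) and Ccl2 (0.32). Cxcl16 (-0.70) and Cxcl9 (-0.77) were lower. The NF-kB and toll-like receptor list counted 5 higher and 13 lower of 38, with Tlr2 (1.11) and Tlr5 (1.84) higher and the adaptor Myd88 lower (-0.47). Macrophage and antigen-presenting cell markers were called in 1 of 28, Cd68 (-0.57), with 6 lower under the replicate block, and their mean lay at 3.14 to 4.09 in FIPs and 3.31 to 4.09 in APCs. T, B and NK cell markers were low in both, with Cd3e at 0 in all 5 FIP libraries and 0 to 0.06 in APCs, and only 3 of 12 neutrophil markers could be tested.

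Acute phase and innate secreted proteins counted 5 higher and 5 lower of 18, with ceruloplasmin (Cp, -0.87) and haptoglobin (Hp, -0.44) lower. MHC class I and peptide loading genes counted 2 higher and 6 lower of 19, with H2-D1 (-0.31) and H2-K1 (-0.19) among the lower, whose reads may be shared with related copies. Complement genes split 6 higher and 5 lower of 25.

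Interferon response genes are switched on by a complex that holds STAT2 and IRF9 and binds repeats of the sequence GAAA. Of 40 tested, 21 were higher in FIPs and 2 lower, with a median of 0.35. Bst2, which tethers virus particles to the membrane, lay at 6.03, 5.79, 5.9, 6.0 and 6.05 in FIPs and 5.36, 5.33, 5.29, 5.21 and 5.3 in APCs (0.66 ± 0.06; limma adjusted p = 1.5e-08). Ifi44 lay at 3.61, 2.92, 3.54, 3.79 and 5.13 and 1.91, 1.29, 1.18, 1.74 and 1.18 (2.34), and Oas3, a sensor of double-stranded RNA, at 2.02, 1.88, 2.02, 1.79 and 3.4 and 0.38, 0, 0.18, 0.26 and 0 (2.06). Isg15, a ubiquitin-like modifier, lay at 4.61, 4.23, 4.52, 4.47 and 5.07 in FIPs and 3.93, 3.45, 3.63, 3.77 and 3.34 in APCs (0.96 ± 0.15; limma adjusted p = 3.1e-05). In these 4 genes replicate 5 of the FIPs was the highest of the 10 libraries, and the other 4 FIP libraries also lay above every APC library. Without replicate 5 of the FIPs, 18 genes of the list were higher and 4 lower, and the median was 0.21. The regulators Stat2 and Irf9 were not called: Stat2 lay at 7.13 to 7.69 in FIPs and 7.14 to 7.38 in APCs, and Irf9 at 6.19 to 6.55 and 6.31 to 6.67.

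RefSeq promoter windows, from 250 bases before to 50 after a start site (GRCm38.p6), were matched by symbol for 29 of the 40 interferon genes. The motif GAAANNGAAA, the core of the interferon-stimulated response element, was searched on both strands. It was present in 17 of the 29 genes (58.6%), against 3.88% of all 11680 tested genes with a window and 3.18% of the 14895 windows. Among the matched genes called higher 13 of 18 held it, and among those not called 4 of 10. The windows of the 3 genes with the smallest p among called holders are shown to display where the motif lies, in lower case with each match in capitals.
Bst2, chr8:71537423-71537722, minus strand: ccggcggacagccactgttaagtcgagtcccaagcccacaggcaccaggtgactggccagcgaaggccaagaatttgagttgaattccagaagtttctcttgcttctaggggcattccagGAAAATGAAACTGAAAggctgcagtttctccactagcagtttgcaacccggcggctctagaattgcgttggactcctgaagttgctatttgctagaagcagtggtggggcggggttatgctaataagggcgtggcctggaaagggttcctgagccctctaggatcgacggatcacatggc
Oas3, chr5:120777610-120777909, minus strand: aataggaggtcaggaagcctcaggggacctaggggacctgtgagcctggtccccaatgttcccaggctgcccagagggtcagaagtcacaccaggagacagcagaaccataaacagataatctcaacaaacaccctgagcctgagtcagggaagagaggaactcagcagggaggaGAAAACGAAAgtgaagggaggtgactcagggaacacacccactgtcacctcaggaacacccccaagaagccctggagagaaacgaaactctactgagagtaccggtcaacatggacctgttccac
Isg15, chr4:156200769-156201068, minus strand: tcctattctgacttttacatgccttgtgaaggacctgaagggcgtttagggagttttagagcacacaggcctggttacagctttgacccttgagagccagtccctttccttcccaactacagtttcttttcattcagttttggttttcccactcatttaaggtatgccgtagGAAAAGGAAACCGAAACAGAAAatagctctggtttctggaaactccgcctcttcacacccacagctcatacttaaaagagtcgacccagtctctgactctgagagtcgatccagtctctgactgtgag
Bst2 held 2 matches, the nearer of which began 124 bases before the start site. Oas3 held 1, which began 75 bases before it, and Isg15 held 3, the nearest at 66 bases before it. A match is a description of letters and was not tested as a binding site.

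**Figure D3:**
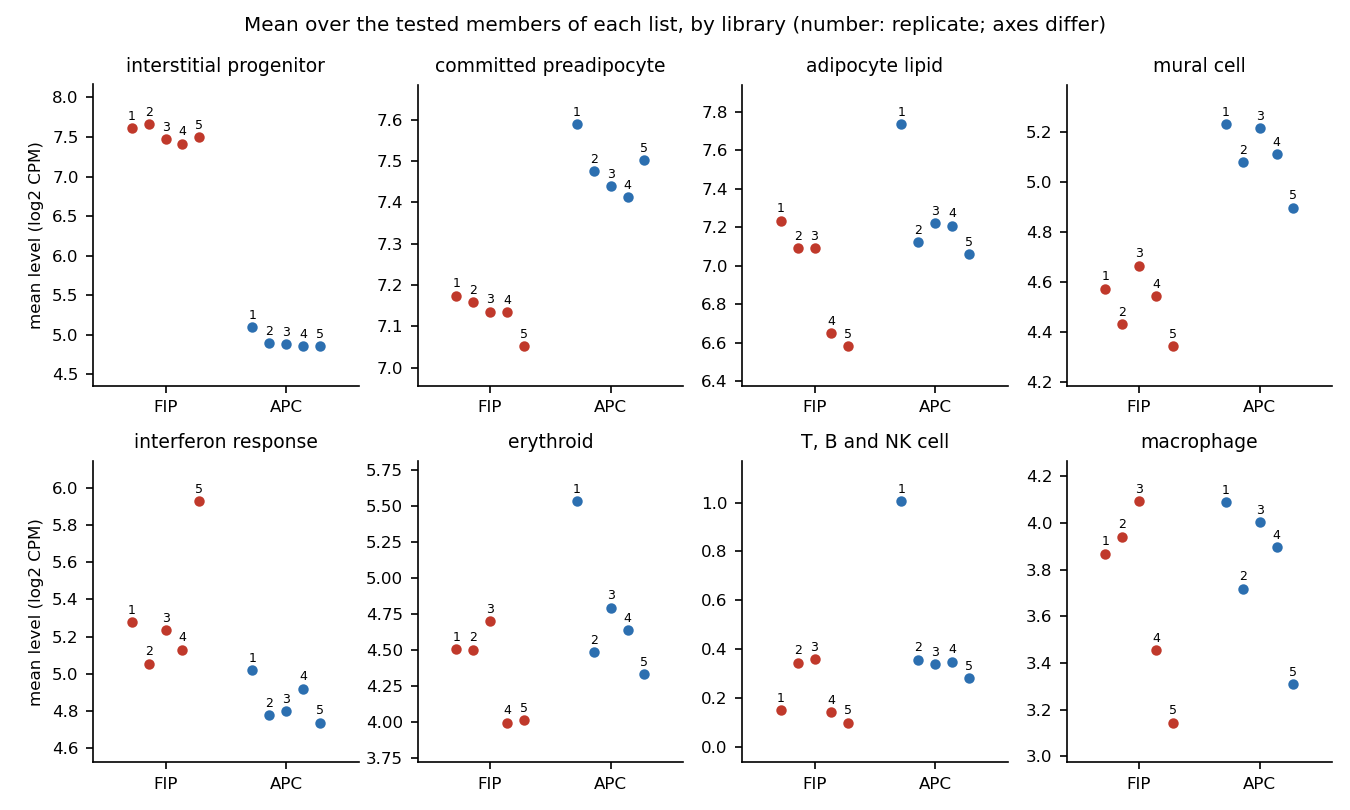
Mean level over the tested members of 8 gene lists (vertical axis, log2 CPM) in each of the 10 libraries of the transgenic label, FIPs in red and APCs in blue, with the replicate number beside each point. FIP replicate 5 is highest in the interferon panel at 5.93, and APC replicate 1 is highest in the lipid panel at 7.73 and in the lymphoid panel at 1.01.

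Matrix genes formed opposite groups. The fibrillar collagens of the bulk matrix did not differ detectably at this spread: Col1a1 lay at 10.48 to 10.57 in FIPs and 10.4 to 10.65 in APCs, and Col3a1 at 10.73 to 10.94 and 10.63 to 10.93, with differences of 0.03 ± 0.05 and 0.04 ± 0.06, neither called. Of the 15 fibrillar and fibril-associated collagens 5 were higher and 4 lower. The higher ones were collagens of the fibril surface, Col14a1 at 10.04, 10.12, 10.03, 10.07 and 10.06 in FIPs and 8.36, 8.23, 8.26, 8.27 and 8.43 in APCs (1.75 ± 0.08; limma adjusted p = 1.7e-13), Col12a1 (2.38) and Col16a1 (0.62), and the minor fibrillar chains Col11a1 (2.58) and Col24a1 (1.14). Elastic fibre and microfibril genes were mostly higher in FIPs, 11 of 18 with 1 lower and a median of 0.33. Eln, which encodes elastin, lay at 9.54, 9.37, 9.34, 9.36 and 9.35 in FIPs and 8.85, 8.56, 8.62, 8.72 and 8.78 in APCs (0.69 ± 0.08; limma adjusted p = 2.4e-07), Fbn1, which encodes fibrillin-1, was higher by 0.40, and the microfibril-associated proteins Mfap4, Mfap5 and Mfap2 by 2.93, 0.67 and 0.94.

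Basement membrane genes, whose sheets surround adipocytes and vessels, were lower in FIPs in 14 of 26 and higher in 3, with a median of -0.19. The type IV collagen genes Col4a3 and Col4a4 lie head to head on chromosome 1, with start positions 72 bases apart, and both were lower. Col4a4 lay at 6.07, 5.52, 6.1, 6.36 and 5.69 in FIPs and 8.01, 7.89, 7.85, 8.17 and 7.91 in APCs (-2.02 ± 0.16; limma adjusted p = 1.6e-09), and Col4a3 at 4.62 to 5.38 and 6.86 to 7.36 (-1.94). The laminin chain Lamc3 differed by -2.66, the proteoglycan Egflam by -1.68, Nid2 by -0.44 and perlecan, Hspg2, by -0.38. Laminin chains did not move together, since Lama4 (0.24) and Lama1 (1.9) were higher. The beaded-filament type VI collagen genes were lower too, Col6a6 at 8.87 to 9.15 against 9.89 to 10.09 (-0.97) and Col6a1 (-0.22), Col6a2 (-0.28) and Col6a3 (-0.32). The Col6a2 call was lost after quantile normalization (limma adjusted p = 0.11).

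Matricellular glycoproteins, which sit in the matrix and tune cell signals, counted 14 higher and 10 lower of 29. Spp1, which encodes the secreted protein osteopontin, lay at 7.15, 7.05, 7.08, 7.43 and 7.55 in FIPs and 2.86, 1.99, 2.26, 1.74 and 1.6 in APCs (5.16 ± 0.22; limma adjusted p = 7.1e-14). Nov, of the CCN family, and its relative Wisp2 were higher by 5.97 and 1.89. Cilp, a matrix inhibitor of TGF-beta, lay at 9.17, 9.18, 9.17, 9.2 and 9.23 in FIPs and 6.08, 5.74, 6.3, 6.05 and 6.54 in APCs (3.05 ± 0.11; limma adjusted p = 3.3e-15). The thrombospondins diverged, with Thbs4 at 5.73, 5.36, 5.23, 4.72 and 5.7 in FIPs and 0.86, 0, 0.33, 0 and 0.86 in APCs (4.94), Thbs3 higher by 0.93 and Thbs1 lower (-0.30). Vtn, which encodes vitronectin, was lower, at 4.93 to 5.98 against 7.03 to 7.51 (-1.8). Cnmd, an inhibitor of vessel growth, had the largest fall among the genes above 0 in all 10 libraries, from 6.36, 6.73, 6.5, 6.34 and 6.31 in APCs to 2.93, 2.88, 3.37, 3.03 and 2.37 in FIPs (-3.53 ± 0.21; limma adjusted p = 1.4e-11).

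Proteoglycans counted 11 higher and 8 lower of 30. The hyaluronan synthases Has1 and Has2 were higher by 0.77 and 1.16, and Cemip, which breaks hyaluronan down, was higher as well, at 2.84, 2.82, 2.62, 3.41 and 4.13 in FIPs and 0.64, 0.36, 0.01, 0.26 and 0.98 in APCs (2.71). Decorin (Dcn) was lower (-0.22) and biglycan (Bgn) was not called. Matrix proteases and inhibitors counted 14 higher and 14 lower of 43. The ADAMTS proteases gave the largest gaps, with Adamts16 (6.2), Adamts19 (4.15) and Adamts6 (2.88) higher and Adamts12 (-0.50) lower. Adamts16 (chr13:70727802-70841811, minus strand) lay at 7.34, 7.31, 7.06, 6.78 and 6.83 in FIPs and 1.14, 0.50, 1.4, 0.84 and 0.45 in APCs. Among collagen-processing enzymes, 9 higher and 7 lower of 26, P4ha3, a prolyl hydroxylase subunit, was listed at 0 in all APC libraries and lay at 3.2 to 4.22 in FIPs.

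Genes first known from axon guidance were prominent. Semaphorins, secreted or membrane cues, and their plexin and neuropilin receptors counted 11 higher and 9 lower of 30. The secreted class 3 members Sema3c, Sema3d and Sema3e were higher by 3.68, 4.47 and 5.7. Sema3d lay at 7.27, 7.21, 6.99, 7.05 and 7.34 in FIPs and 3.06, 2.17, 2.68, 2.84 and 2.74 in APCs (SE 0.12; limma adjusted p = 1.5e-16). The membrane-bound class 6 members Sema6a (-0.85), Sema6b (-0.81) and Sema6d (-0.45) were lower, as was Plxnd1 (-0.84), the receptor for Sema3e. Ligand and receptor of that pair were thus highest in opposite populations. Slits, netrins, ephrins and their receptors counted 14 higher and 4 lower of 27, with Ntn4 at 7.93, 7.94, 7.77, 7.8 and 7.7 in FIPs and 5.86, 6.03, 6.38, 6.3 and 6.28 in APCs (1.66 ± 0.08; limma adjusted p = 9.0e-13), the netrin receptor Unc5c at 4.04, 3.77, 3.7, 4.44 and 5.29 and 0.06, 0, 0, 0 and 0.08 (4.22), and Efnb2 (1.32), Efna5 (1.54) and Epha3 (2.48) higher.

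Neurotrophic factors and their receptors counted 10 higher and 7 lower of 19. Ntf3, which encodes neurotrophin-3, lay at 1.63, 0.48, 0.43, 1.03 and 0.50 in FIPs and 4.1, 4.27, 4.21, 4.14 and 4.08 in APCs (-3.35 ± 0.27; limma adjusted p = 2.0e-09). Its receptor Ntrk3 was higher in FIPs, at 6.05 to 6.31 against 4.68 to 5.41 (1.12), so that this ligand and its receptor also differed in opposite directions. Ngfr was higher by 1.98 and Ptn by 2.89, while Cntfr was lower (-2.06). Ngfr and Ncam1 (4.97) also mark Schwann cells, whose list counted 3 higher and 1 lower of 12. The defining Schwann gene Sox10 was not called, at 0 in all FIP libraries and at 0 to 0.47 in APCs.

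Cell adhesion genes lay on both sides. Integrins and immunoglobulin receptors counted 9 higher and 11 lower of 34 (58.8% called), and cadherins 9 higher and 9 lower of 27 (66.7%). Of all genes tested 41.7% were called. Itgb3, a vitronectin receptor subunit, lay at 7.2, 7.24, 7.18, 7.09 and 7.02 in FIPs and 4.91, 5.28, 5.46, 5.39 and 5.24 in APCs (1.89 ± 0.10; limma adjusted p = 3.2e-12), while its ligand gene Vtn was lower, as given above. Itga2, a collagen receptor chain, was higher (1.74) and the collagen and laminin receptor chain Itga1 lower (-0.85). Among the lower cadherins, Pcdh8 was listed at 0.25, 0.02, 0, 0.03 and 0 in FIPs and lay at 3.5, 4.15, 3.84, 3.82 and 3.86 in APCs (-3.77), and the protocadherins Pcdh12 (-2.32) and Pcdh1 (-1.24) were lower too. The giant cadherins Dchs1 and Dchs2 went apart, 0.82 and -1.91. Without replicate 5 of the FIPs, 7 integrin and immunoglobulin receptor genes were lower.

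**Figure D4:**
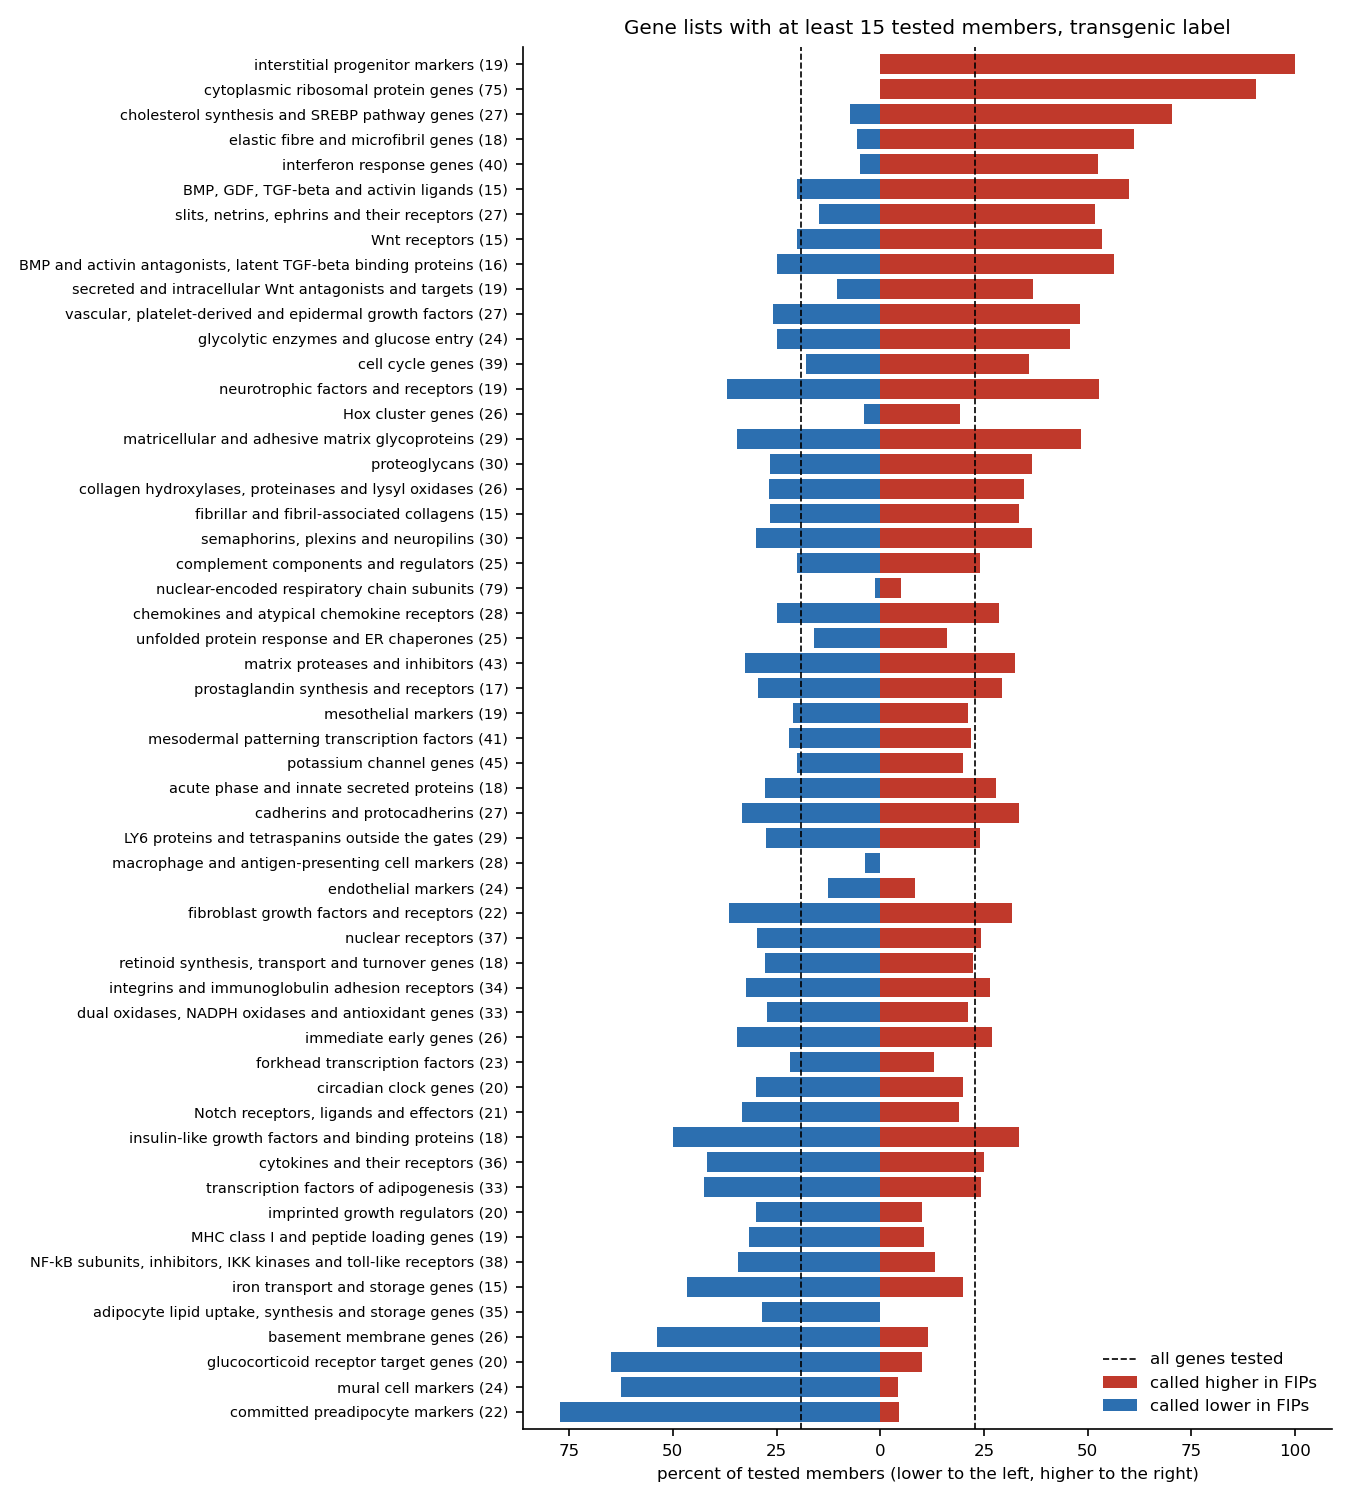
Share of the tested members (horizontal axis, percent) called higher in FIPs (red, to the right) and lower (blue, to the left) for the 55 gene lists with at least 15 tested members, with the number tested beside each name. The dashed lines mark the share over all genes tested, 22.7% higher and 19.0% lower. Interstitial progenitor markers and ribosomal protein genes reach furthest to the right, and committed preadipocyte markers reach furthest to the left. The lists were chosen with earlier results of these data known.

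The dual oxidases were among the most one-sided genes. DUOX enzymes release hydrogen peroxide outside the cell and need a maturation factor encoded beside them. Duox2, Duoxa1 and Duox1 lie in 1 stretch of chromosome 2, from 122279247 to 122347972 (GRCm38), and Duoxa1 and Duox1 start 1942 bases apart on opposite strands. Other genes in this stretch are not reported here. Duox1 lay at 6.8, 7.47, 6.99, 6.7 and 7.03 in FIPs and 0.30, 1.08, 0.66, 0.63 and 0 in APCs (6.46 ± 0.26; limma adjusted p = 3.8e-14), and Duoxa1 at 5.27, 5.81, 5.44, 5.18 and 5.21 and 0, 0.21, 0, 0 and 0 (5.34). Duox2 was listed at 0 in all APC libraries and lay at 3.63, 5.85, 4.19, 3.54 and 5.0 in FIPs. These 3 genes were therefore near or at the floor of the table in APCs and above it in every FIP library. Over the list of oxidases and antioxidant genes 7 of 33 were higher and 9 lower, with the antioxidant genes Sod2 (-0.54), Gclc (-0.62), Txnrd1 (-0.45) and Gpx3 (-0.27) lower.

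Cholesterol synthesis and SREBP pathway genes were higher in FIPs in 19 of 27 and lower in 2, with a median of 0.41. SREBP proteins induce these enzymes when sterols are scarce. Dhcr7, the last enzyme of the pathway, lay at 5.71, 6.08, 5.78, 5.68 and 6.08 in FIPs and 4.73, 4.56, 4.6, 4.7 and 4.45 in APCs (1.26 ± 0.10; limma adjusted p = 2.1e-09). The enzyme genes Mvd (1.31) and Cyp51 (0.69) were higher too. The exceptions were Sc5d (-0.19) and Insig1, which holds SREBP back when sterols are plentiful. The Insig1 difference of -0.12 lost its call when any one of 6 libraries was left out, with differences of -0.12 to -0.08. The sequence TCACNCCAC, a form of the sterol response element, was found in 1 of the 19 list genes with a promoter window (5.26%). It was found in 1.42% of all tested genes with a window, and in none of the 12 list genes called higher. Only this exact sequence was searched, within the same windows, so the count does not show that sterol response elements are absent. Of 75 cytoplasmic ribosomal protein genes 68 were higher and 0 lower, with small differences and a median of 0.25. After median centring 54 were higher and 0 lower, with a median of 0.19. Rpl6 lay at 7.61, 7.57, 7.5, 7.58 and 7.56 in FIPs and 7.24, 7.3, 7.24, 7.14 and 7.23 in APCs (0.33 ± 0.03; limma adjusted p = 4.2e-08). Ribosomal protein genes have many processed copies, so shared reads make single values uncertain.

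Glycolytic genes counted 11 higher and 6 lower of 24, with Aldoc listed at 0 in all APC libraries and at 2.23 to 3.47 in FIPs, the lactate exporter Slc16a3 higher (1.74) and Pdk4 lower (-0.55). Nuclear-encoded respiratory chain subunits were called in 5 of 79, 4 higher and 1 lower, and after median centring 3 were higher and 6 lower. Cell cycle genes counted 14 higher and 7 lower of 39. The higher ones mixed cell cycle inhibitors with mitotic genes, as Cdkn2a was at 0 in all APC libraries and at 1.84, 1.92, 1.37, 2.46 and 2.64 in FIPs, Cdkn1b was higher by 0.39, and Cdk1 lay at 4.53, 3.96, 3.99, 3.6 and 3.87 in FIPs and 3.67, 3.43, 3.6, 2.84 and 3.23 in APCs (0.64). The DNA replication gene Mcm5 was lower (-0.47), a call lost without any one of 4 libraries, with differences of -0.44 to -0.38. Without replicate 5 of the FIPs, 11 cell cycle genes were higher and 3 lower.

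Prostaglandin genes lay on both sides. Pla2g4a, which releases arachidonic acid, and the cyclooxygenases Ptgs1 and Ptgs2 were higher in FIPs, by 1.22, 1.42 and 1.03, with Ptgs2 at 9.23, 9.31, 9.22, 9.3 and 9.22 in FIPs and 8.2, 8.47, 8.16, 7.94 and 8.35 in APCs (SE 0.08; limma adjusted p = 2.9e-09). Prostacyclin synthase, Ptgis, was higher (0.62) and the prostaglandin E synthase Ptges lower (-0.55). The receptors Ptgir (-0.97), Ptger2 (-1.44) and Ptger4 (-0.26) were lower. Of the 17 genes of the list 5 were higher and 5 lower (58.8% called, against 41.7% of all genes tested).

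In the angiotensin and kinin list 3 of 13 genes were higher and 6 lower. Agt, the precursor of angiotensin, lay at 6.21, 5.97, 6.01, 6.16 and 5.58 in FIPs and 7.42, 7.02, 6.63, 7.24 and 6.89 in APCs (-1.05 ± 0.16; limma adjusted p = 1.9e-05), and its receptor Agtr1a was lower (-0.79), whereas the other receptor, Agtr2, was listed at 0 in all APC libraries and at 0.82 to 2.4 in FIPs. Glucocorticoid receptor targets were lower in 13 of 20 and higher in 2, with a median of -0.30. Klf9 (-0.34), Zbtb16 (-0.40) and Cebpd (-0.30) were among them, while the receptor gene Nr3c1 was slightly higher, at 7.95 to 8.01 in FIPs and 7.66 to 7.82 in APCs (0.22). Hsd11b1, counted above among preadipocyte markers, and Angptl4 (-0.56), counted among lipid genes, belong to this list as well. In the retinoid list, 4 higher and 5 lower of 18, the enzymes of retinoic acid synthesis Aldh1a1 (-0.74) and Adh1 (-0.80) were lower, and Bco1, which cleaves beta-carotene, was listed at 0 in all APC libraries and at 3.02 to 3.73 in FIPs.

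Nuclear receptors counted 9 higher and 11 lower of 37. The NR4A receptors, which are induced quickly by many signals, were all higher, Nr4a2 at 6.48, 6.34, 6.48, 6.65 and 6.2 in FIPs and 4.42, 4.19, 4.59, 4.56 and 4.02 in APCs (2.07 ± 0.15; limma adjusted p = 3.8e-10), Nr4a3 by 1.32 and Nr4a1 by 0.50. Esr1, the estrogen receptor, was higher too (0.65). The immediate early genes, which tissue dissociation is known to induce, counted 7 higher and 9 lower of 26, with Fos (-0.17), Jun (-0.22) and Fosb (-0.26) slightly lower in FIPs. The Fosb call was lost after quantile normalization (limma adjusted p = 0.069). Among mesodermal patterning factors, 9 higher and 9 lower of 41, Sox4 (1.4) and Prrx2 (0.89) were higher and Tbx2 (-1.28) and Meox1 (-1.05) lower. Hox cluster genes counted 5 higher and 1 lower of 26, below the background share.

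Outside these groups, the most one-sided genes above 0 in all 10 libraries included Arnt2, a bHLH-PAS transcription factor, at 5.59, 5.76, 5.4, 5.43 and 5.88 in FIPs and 1.51, 0.21, 0.82, 0.39 and 0.74 in APCs (4.88 ± 0.23; limma adjusted p = 3.6e-13), Islr2 (4.86) and Tnfrsf11b, the decoy receptor osteoprotegerin (4.72). In the other direction stood Blnk, an adaptor best known from B cells, at 1.14, 1.97, 2.3, 1.42 and 0.72 in FIPs and 4.3, 5.15, 5.02, 5.01 and 4.81 in APCs (-3.35), the phosphodiesterases Pde4c (-3.26) and Pde11a (-2.54), the receptor kinase adaptor Dok7 (-3.18) and the sialyltransferase St8sia6 (-3.18). The B cell marker Cd79a was also lower, at 0.12 to 1.57 in FIPs and 1.44 to 2.21 in APCs, and its part in the Blnk value was not tested. Some abundant genes, not all of them outside the lists, differed by at least 1. Fndc1 (1.53), Cd248 (1.09), already counted among the interstitial progenitor markers, and Thbs2 (1.0) were higher. The chaperone gene Hspa1a (-1.04), Thsd7a (-1.13) and Spon1 (-1.42) were lower. Several genes were listed at 0 in a whole group, among them Mrgprg and Nefl in APCs, at 5.11 to 6.44 and 3.83 to 4.65 in FIPs, and Lrrc55 and Soga3 in FIPs, at 1.04 to 2.86 and 0.93 to 1.79 in APCs.

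**Figure D5:**
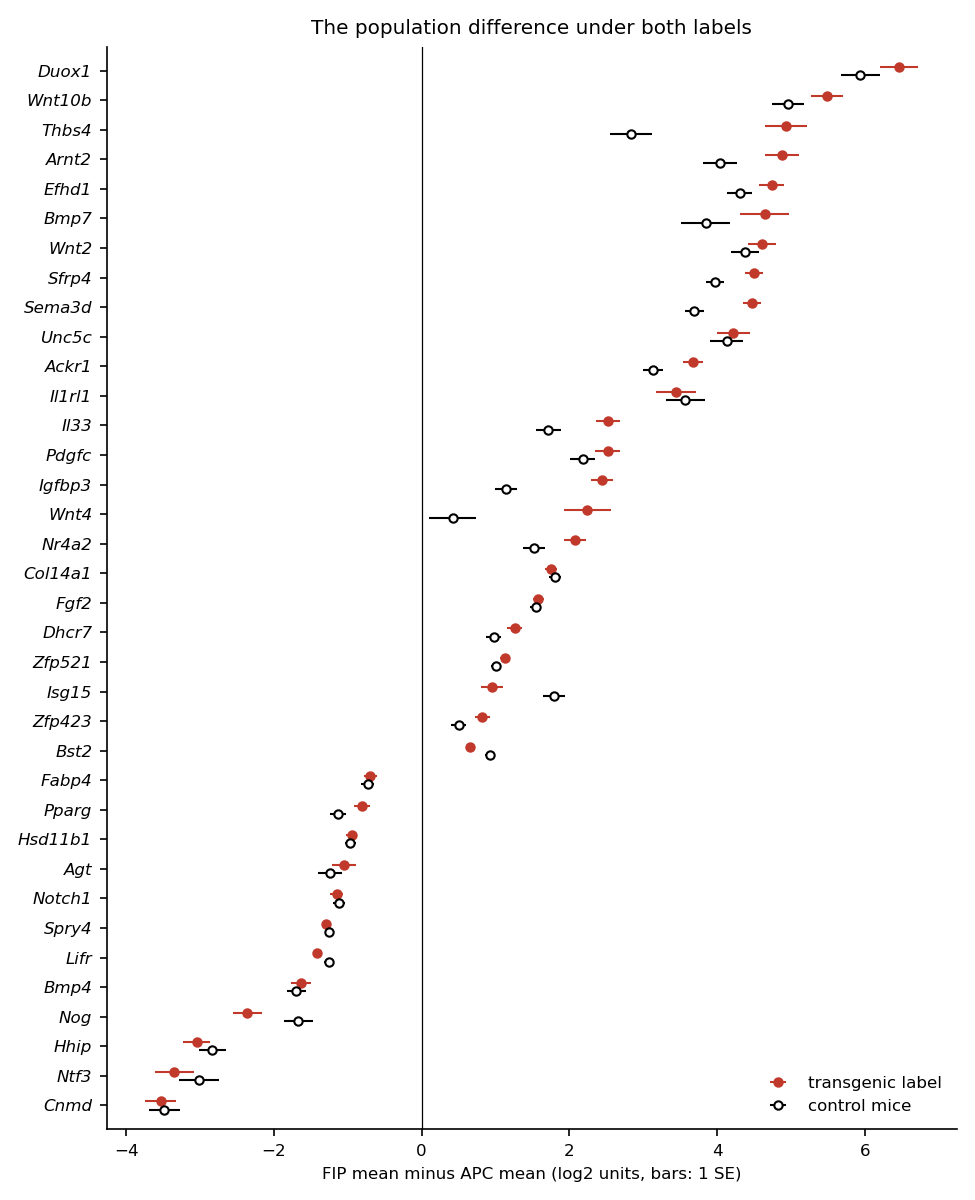
Difference between FIPs and APCs (horizontal axis, log2 units, bars of 1 SE) for 36 of the genes named, in mice of the transgenic label (filled red) and in control mice (open black). Both estimates have the same sign in each gene drawn, but named genes with opposite signs, such as Acta2 and Rgs5, are not drawn. With all libraries the transgenic difference minus the control difference was called for none of the genes drawn, as for none of those tested. Without replicate 1 of the APCs it was called for some of them, among them Wnt4, Thbs4 and Igfbp3.

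The same contrast in the control mice gives the background of the population difference. The difference of the differences, transgenic minus control, was tested for all 17435 genes in the same limma fit, and 0 genes (0.0%) were called, in either direction (0.0% higher and 0.0% lower), with 2388 genes at an unadjusted p under 0.05. This count depended on replicate 1 of the APCs: without it 331 genes were called, 288 with a larger and 43 with a smaller transgenic difference in signed terms. It was 32 without replicate 5 of the FIPs, 176 with array weights, and between 0 and 36 in the other settings. In the fit without replicate 1 of the APCs, 29 of the named genes were among the 331. Of these, 23 had the larger difference in size under the transgenic label. Because many genes were named for their transgenic difference, this count favours that label and is not a test. As given above, that replicate was the transgenic APC library whose lipid, erythroid and lymphoid means lay within the control APC ranges. Its part in the calls was not tested. Wnt4 had a difference of 2.25 ± 0.32 under the transgenic label and 0.42 ± 0.32 in control mice, and its limma adjusted p for the difference of differences was 0.13 with all libraries and 0.036 without replicate 1 of the APCs. For Thbs4 the differences were 4.94 and 2.83, with limma adjusted p = 0.074 and 0.017, and for Igfbp3 they were 2.44 and 1.14, with limma adjusted p = 0.067 and 0.0073. Mural genes belonged to this group: Myh11 had -0.37 under the transgenic label and -1.2 in control mice, and Acta2 0.19 and -0.66, so that these smooth muscle genes, uncalled here, were lower in the FIPs of control mice. Zfp423 itself had 0.82 and 0.50 (limma adjusted p = 0.33 with all libraries and 0.045 without replicate 1 of the APCs), and replicate 1 had the highest Zfp423 of the 5 transgenic APC libraries. The gate genes Cd9 and Ly6c1 were among the 29 as well, with 2.21 and 1.54 for Cd9 and 2.14 and 1.71 for Ly6c1, and their part in the other differences was not tested.

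By gene group, the interferon list had 21 higher of 40 under the transgenic label and 28 in controls, with medians of 0.35 and 0.72. The lipid list had 10 and 33 lower of 35, with medians of -0.33 and -0.66, and the mural list 15 and 22 lower of 24. Endothelial markers had 3 and 22 lower of 24, with medians of -0.03 and -0.62, and respiratory chain subunits 1 and 37 lower of 79. With all libraries, none of the members of these lists was called in the difference of differences, so these counts were not shown to differ between the labels. Without replicate 1 of the APCs, 5 mural, 5 endothelial and 1 respiratory member were called, and 0 of the lipid and interferon lists.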

How the data were processed

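The submitters' processing notes name Trim Galore 0.4.1, HISAT2 2.0.1, featureCounts 1.4.6 and DESeq2 1.6.3, without their roles, and the build GRCm38 (mm10). The sources used here name no annotation release or strand setting. The authors deposited 1 table of log2 CPM for 54304 genes, in which values at or below 1 CPM are listed as 0. Depths were read from the spacing of low values, of which 74.8% to 78.8% per library were whole multiples of 1 read (within 0.0051 log2 units), too few for a count test.

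Genes above 0 in at least 5 of the 20 libraries (17435) were fitted with limma 3.58.1 in R 4.3.3, with a variance trend, 1 mean per group, 16 residual degrees of freedom and Benjamini-Hochberg adjustment. The transgenic difference minus the control difference was tested in the same fit. The script was tested on simulated data. Alternatives changed the added constant, the filter, the scaling (median, quantile or trimmed mean of M-values on the CPM), the variance model, the block and the libraries. The gene lists and the named members were chosen with earlier results of these data known, and up to 10 members of a list are named, by smallest p or by role. Genes outside the lists are the largest differences, the most abundant with a difference of at least 1, and those at 0 in a whole group. Some genes stand in more than 1 list. Symbols were matched to GENCODE coordinates and to RefSeq promoter windows (GRCm38.p6). Near-identical copies (hemoglobin, Ly6c, H2, Oas1 and ribosomal protein genes) may share reads. Some list members are not reported here.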

Additional observations from a re-analysis of the deposited data

Results flagged for a closer look

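In 52 of 744 groups of 5 libraries, over the named genes and the list means, 1 library lay apart from the other 4 by Dixon's gap criterion, which chance meets in about 1 of 20 groups. Values are log2 CPM, with the range of the other 4 libraries after each.

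Replicate 1 of the APCs stood apart in the mean over T, B and NK cell markers, at 1.01 (0.28 to 0.36), the mean over adipocyte lipid uptake, synthesis and storage genes, at 7.73 (7.06 to 7.22), the mean over complement components and regulators, at 5.96 (5.78 to 5.81) and the mean over interstitial progenitor markers, at 5.1 (4.86 to 4.9). Also apart there were the mean over nuclear-encoded respiratory chain subunits, at 5.28 (5.03 to 5.1), the mean over secreted and intracellular Wnt antagonists and targets, at 3.85 (3.48 to 3.58), Acaca at 9.27 (8.34 to 8.57) and Cd3e at 0.06 (0 to 0.01). The library differed likewise in Col11a1 at 0.38 (0 in each), Col24a1 at 0.51 (0 in each), Efna5 at 4.32 (3.65 to 3.81) and Igfbp5 at 7.3 (6.28 to 6.36). Its last such values were Notch3 at 8.18 (8.47 to 8.58), Pdgfrb at 9.24 (9.45 to 9.51), Ptgis at 6.83 (6.99 to 7.02) and Tspan18 at 4.85 (3.63 to 3.91).

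Replicate 5 of the APCs stood apart in the mean over slits, netrins, ephrins and their receptors, at 3.97 (4.11 to 4.14), Adh1 at 7.43 (7.22 to 7.25), Cebpd at 8.2 (7.95 to 8.0) and Cp at 9.78 (9.63 to 9.66). Also apart there were Fos at 9.25 (9.03 to 9.06), Fosb at 10.49 (10.23 to 10.28), Gpx3 at 8.45 (8.22 to 8.26) and Hspg2 at 11.74 (11.49 to 11.55). The library differed likewise in Jun at 9.39 (9.09 to 9.17) and Lama4 at 9.36 (9.21 to 9.25).

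Replicate 5 of the FIPs stood apart in the mean over interferon response genes, at 5.93 (5.05 to 5.28), Acta2 at 6.26 (5.88 to 5.93), Ccl2 at 7.41 (7.52 to 7.56) and Col12a1 at 8.36 (8.01 to 8.08). Also apart there were G0s2 at 5.28 (5.59 to 5.7), H2-K1 at 8.08 (8.2 to 8.24), Oas3 at 3.4 (1.79 to 2.02) and Ptges at 6.99 (7.19 to 7.25). The library differed likewise in Sod2 at 6.73 (6.78 to 6.8).

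Replicate 1 of the FIPs stood apart in Eln at 9.54 (9.34 to 9.37), Il33 at 6.15 (5.94 to 5.98), Itga2 at 4.63 (4.86 to 4.95) and Pcdh8 at 0.25 (0 to 0.03). Also apart there was Wnt10b at 5.99 (5.67 to 5.76). Replicate 4 of the APCs stood apart in the mean over cytoplasmic ribosomal protein genes, at 6.13 (6.24 to 6.28), Cd68 at 4.82 (4.67 to 4.7), Cxcl16 at 6.03 (6.14 to 6.17) and Nkd2 at 5.32 (4.8 to 4.92). Replicate 2 of the APCs stood apart in Adamts6 at 2.9 (3.13 to 3.18), Duoxa1 at 0.21 (0 in each) and Wnt2 at 0.50 (0 to 0.01). Replicate 3 of the APCs stood apart in Ackr2 at 3.52 (3.85 to 3.97), Il18 at 2.33 (2.82 to 2.96) and Rnase10 at 0.33 (0 in each). Replicate 2 of the FIPs stood apart in Tgfbr2 at 9.36 (9.18 to 9.23). Replicate 3 of the FIPs stood apart in Sema6a at 5.66 (5.34 to 5.42).

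The lipid and lymphoid means of APC replicate 1 and the interferon mean of FIP replicate 5 lay within the ranges of the control libraries. What set these libraries apart was not tested.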

How the results depend on the processing

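The counts of called genes (6682 to 7964 over all alternatives), of genes higher and lower, and of groups without overlap (4737 to 5809) stayed within 1.5 times their values. The difference of differences did not: 0 genes with all libraries, 3 after adding 1 to the CPM, 176 with array weights, 1 after quantile normalization, 25 with the replicate block and 36 with the block as a random effect, and 0 to 331 when 1 library was left out, with unadjusted counts of 1798 to 3484. The fit to the 10 transgenic libraries alone cannot test it. With the replicate block 7845 genes were called. Same-numbered FIP and APC libraries had correlated deviations of 0.059 to 0.333, above 0.1 in 3 of 5 pairs, against -0.321 to 0.226 between unlike numbers. Of the libraries, 2 of 5 FIP and 4 of 5 APC correlated best with their own number. The labels do not state that like numbers share mice, so the main fit left the pools unpaired, and whether the numbers pair them was not settled. With the block 29 lipid genes were lower in place of 10, and 6 macrophage markers in place of 1. Of 281 named genes called, 275 kept direction and call in every alternative. Many of them were named for a small p or a large difference, so this share does not hold for all calls. Of the 7275 calls over all genes, 6482 were kept in the same direction after median centring and 6492 without replicate 5 of the FIPs. Wnt5b also lost its call with no filter, Insig1 with array weights and in the transgenic libraries alone, and Col6a2 and Fosb after quantile normalization. No named gene reversed. Quantile normalization gave 48.5% of calls as higher. Mesothelial markers lower fell from 4 to 2 without replicate 1 of the APCs or replicate 5 of the FIPs, and erythroid ones from 4 to 1 without either. The causes were not tested. Values at or below 1 CPM are listed as 0, so differences of low genes are understated, and 5 libraries a group limit the precision.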

Other observations

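Gene groups not described above gave the following values. Among bone and mineralization genes 5 of 11 were higher in FIPs and 2 lower. Alpl, a phosphatase that frees phosphate for mineral, lay at 5.48, 5.32, 5.53, 5.4 and 5.3 in FIPs and 6.45, 6.58, 6.63, 6.5 and 6.57 in APCs (-1.14 ± 0.07; limma adjusted p = 2.4e-11). The enzyme Enpp1, which makes the mineralization inhibitor pyrophosphate, went the other way, at 5.95, 5.88, 5.99, 6.18 and 6.56 and 4.73, 4.84, 5.24, 4.95 and 4.85 (1.19), and Mgp, a matrix inhibitor of calcification, was higher by 0.47. The groups of these 3 genes did not overlap.

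Iron transport genes counted 3 higher and 7 lower of 15. Slc40a1, which encodes the iron exporter ferroportin, lay at 5.28, 5.02, 5.17, 5.68 and 6.11 in FIPs and 4.0, 3.27, 3.63, 3.82 and 3.54 in APCs (1.8 ± 0.19; limma adjusted p = 1.2e-07), and transferrin, Trf, was lower at 3.25 to 3.71 against 4.06 to 4.48 (-0.78). Clock genes counted 4 higher and 6 lower of 20, with the repressors Nfil3 (0.72) and Bhlhe41 (0.82) higher and Hlf lower (-1.06). Core clock genes Arntl and Clock were not called, at 5.66 to 5.95 and 7.15 to 7.36 in FIPs against 5.52 to 5.79 and 7.13 to 7.28 in APCs. Unfolded protein response genes counted 4 higher and 4 lower of 25 (1 higher and 4 lower after median centring), with Trib3 higher (1.79) and Xbp1 lower (-0.25).

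Imprinted growth regulators counted 2 higher and 6 lower of 20. Peg10, derived from a retrotransposon, lay at 5.33, 5.23, 5.2, 5.54 and 5.4 in FIPs and 6.43, 6.56, 6.24, 6.41 and 5.89 in APCs (-0.97). Tetraspanins and LY6 proteins outside the gates counted 7 higher and 8 lower of 29, with Tspan18 (2.01) and Tspan11 (1.51) higher and Cd82 (-1.11) lower. Potassium channel genes split 9 and 9 of 45 and forkhead factors 3 higher and 5 lower of 23, near the shares over all genes. Mesothelial markers counted 4 higher and 4 lower of 19, with 2 lower without replicate 1 of the APCs or replicate 5 of the FIPs, 7 after median centring and 6 with the replicate block, and with the defining Msln not called, at 1.94 to 2.96 in FIPs and 2.29 to 3.55 in APCs. Of the epididymis markers only Rnase10 could be tested, at 0.25 to 0.84 and 0 to 0.33.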
